A study of Mus musculus with 6 samples.

Results

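The p53 pathway and target genes examined here are 34 mouse genes chosen by name, from a list fixed with earlier results of these data known. They are p53 itself, its main inhibitors, and genes that p53 is known to switch on. A gene entered when at least 1 probe set carried exactly its symbol and no other. Of the 34, 31 genes were measured, with 318 probe sets of the 269751 on the array, among 23152 genes in all. Trp53, Bax and Tp53i11 had no probe set under that exact symbol and were not analysed here. All 31 measured genes passed a filter on dim genes, which removes those below the lower quartile of mean signal.

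Neural stem cells from mouse cortex at embryonic day 14.5 were grown as 3 culture lines that carry the numbers 2, 7 and 8. Each line was split between a virus that delivers Cre recombinase (Ad-Cre), by which these cells come to express mutant IDH, named in the series title as IDH1-R132H, and a control virus that delivers green fluorescent protein (Ad-GFP). Both viruses were used at 100 infectious units per cell and washed off after 24 hours, and each culture was read on 1 Affymetrix array, so each virus has 3 arrays. The labels give neither the strain nor the promoter that drives mutant IDH. Since 0 arrays carry Cre without mutant IDH, Cre itself and mutant IDH cannot be told apart as the source of a difference. Whether the lines came from separate embryos is not stated, so the disagreement between the 3 lines may be technical. Each p-value rests on that disagreement, pooled in part with the spread of other genes of like signal.

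The protein p53 is a transcription factor that is kept low in unstressed cells because the ubiquitin ligase Mdm2 marks it for destruction. DNA damage and other stresses free p53 from Mdm2, and it then switches on genes that stop the cell cycle, repair DNA, restrain growth or trigger cell death. Mdm2 is itself a p53 target, so the pathway holds a feedback loop, and in neural stem cells p53 is known to limit self-renewal and proliferation.

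Array values are log2 signals, so a difference of 1 is a doubling, and values for 3 arrays are listed in the order of line 2, line 7 and line 8. Median probe set signals lay between 8.38 and 8.43. The Ad-Cre array of line 2 stood apart: it correlated across genes with the other arrays at 0.969 to 0.976. The proliferation marker Mki67 read 10.10 on it, against 12.43 and 12.51 on the other Ad-Cre arrays and 12.63 to 12.84 with Ad-GFP. For line 8, a description field carries mutant and wild-type marks that run against those of the other lines. Groups were taken from the titles, which the transduction field bears out for each of the 6 arrays. With the labels of line 8 exchanged, 0 of the 31 genes were higher at an unadjusted p under 0.05 and their median difference was 0.10. Total Idh1 transcript differed by 0.03 ± 0.10 (SE; limma adjusted p = 0.917). Total Idh1 does not check the labels, since the probe sets are not known to be specific for the mutant transcript.

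The measured p53 genes were mostly higher with Ad-Cre than with Ad-GFP. Their median difference was 0.37 log2 units, against 0.03 over all 23152 genes, and the single differences ran from -0.22 for Perp to 0.93 for Fas and Phlda3. Of the 31, 16 were higher at an unadjusted limma p under 0.05 (51.6%), where 7.04% of all genes were, and 0 were lower, where 5.58% of all genes were. In the same 16 genes every Ad-Cre array read above every Ad-GFP array, a separation found in 12% of all genes, and in 0 genes did every Ad-Cre array read below every Ad-GFP array (8.89% of all genes). At an unadjusted p under 0.01, 13 were higher, against 2.14% of all genes. In 17 of the 31 the difference was positive in all 3 lines (22.1% of all genes), and Perp was the 1 gene negative in all 3 (16.2%). None passed limma after Benjamini-Hochberg adjustment over all genes: 0 of 31 genes had an adjusted p under 0.05, as did 0.00% of all genes. The smallest adjusted p among the 31 was 0.0795, for Cdkn1a, and over all genes it was 0.0669. The 31 genes were chosen with earlier results of these data known, so their shares describe the list and are not an independent test.

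**Figure D1:**
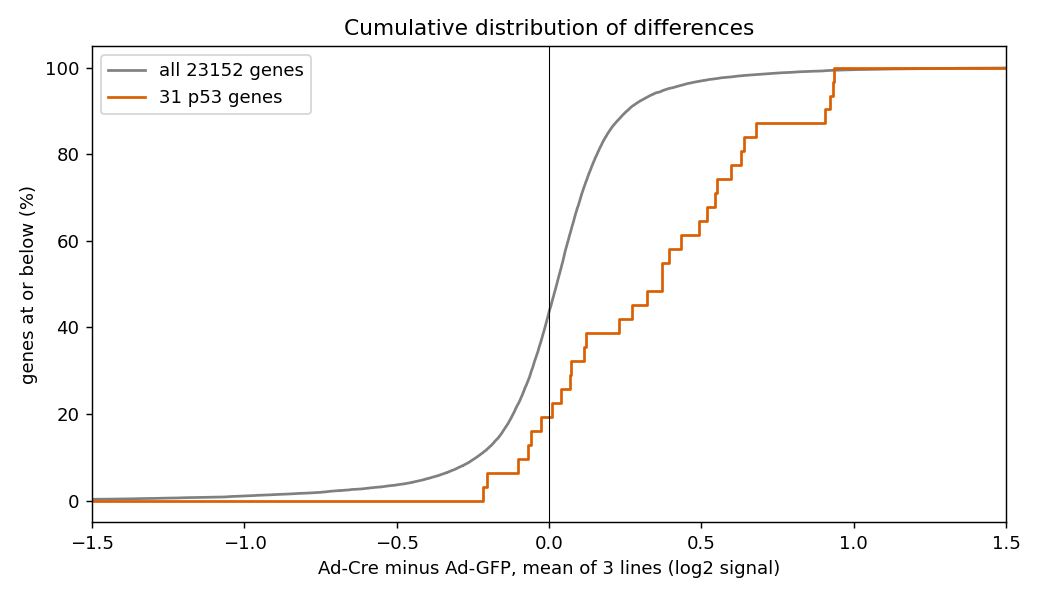
Cumulative share of genes (%) against the Ad-Cre minus Ad-GFP difference (log2 signal, mean of 3 lines) for all 23152 genes in grey and the 31 p53 genes in orange. The orange curve lies to the right of the grey one, with medians of 0.37 and 0.03.

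The adjusted calls depended on line 2. Without the pair of arrays of line 2, 16 of the 31 genes passed limma at an adjusted p under 0.05, all as higher, where 2.66% of all genes passed as higher and 2.57% as lower (5.23% either way). The genes that passed without line 2 were 15 of the 16 above, without Ei24 (adjusted p = 0.0864) and with the death receptor Tnfrsf10b added. The fit without line 2 rests on 4 arrays and 1 residual degree of freedom. Without line 7 and without line 8, 0 genes passed, and the smallest adjusted p among the 31 was 0.293 and 0.166. With all 6 arrays and no block for the line, 0 of the 31 passed, against 0.354% of all genes.

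Promoter windows were searched for the p53 response element, since many of these genes were higher together. The element is a pair of decamers, each with a C and a G around a central AT-rich pair, and the decamer reads the same on both strands. RefSeq windows of 250 bases before each annotated start (GRCm38.p6) were available for 25 of the 31 genes. An exact p53 decamer was present in 11 of the 25 (44.0%), against 8.2% of 27025 genes. An adjoining pair with all core bases and at most 3 mismatches was present in 6 of the 25 (24.0%), against 1.36%. The genes were listed as p53 targets to begin with, so these shares are a description and no test was run. The best-matching stretch is shown for the 6 genes of lowest p with a decamer, 5′ to 3′ on the strand of the gene, with the match in capitals. Cdkn1a and Ccng1 differ from the consensus pair at 1 base and Aen at 3, and Polk, Gadd45a and Mdm2 hold a single decamer.
Cdkn1a, chr17:29090729-29090978, plus strand: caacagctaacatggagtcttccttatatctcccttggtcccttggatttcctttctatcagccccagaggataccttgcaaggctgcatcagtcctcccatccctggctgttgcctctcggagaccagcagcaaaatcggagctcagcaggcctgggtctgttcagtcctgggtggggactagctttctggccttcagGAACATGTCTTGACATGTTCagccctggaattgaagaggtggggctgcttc
Ccng1, chr11:40755287-40755536, minus strand: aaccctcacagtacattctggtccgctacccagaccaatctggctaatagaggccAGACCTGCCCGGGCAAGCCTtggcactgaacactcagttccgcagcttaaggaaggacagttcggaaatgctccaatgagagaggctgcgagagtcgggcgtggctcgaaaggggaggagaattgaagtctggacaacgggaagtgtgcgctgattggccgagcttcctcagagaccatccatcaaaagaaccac
Aen, chr7:78895808-78896057, plus strand: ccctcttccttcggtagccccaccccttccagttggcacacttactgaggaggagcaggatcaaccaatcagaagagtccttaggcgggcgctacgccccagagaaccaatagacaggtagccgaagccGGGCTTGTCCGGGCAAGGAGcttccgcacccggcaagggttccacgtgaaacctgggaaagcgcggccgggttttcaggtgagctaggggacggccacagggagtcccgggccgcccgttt
Polk, chr13:96519389-96519437, minus strand: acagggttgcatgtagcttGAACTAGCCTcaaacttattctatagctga
Gadd45a, chr6:67037418-67037467, minus strand: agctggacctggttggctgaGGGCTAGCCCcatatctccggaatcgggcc
Mdm2, chr10:117710915-117710964, minus strand: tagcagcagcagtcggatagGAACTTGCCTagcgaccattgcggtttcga
The Cdkn1a match lies 51 bases before the more upstream of 2 annotated starts, and the Ccng1 match 195 bases before its start. The Aen match begins 121 bases before a start. Of the pairs, 3 more were in Bbc3, Sesn1 and Ckap2, shown for contrast and chosen after the matches were seen.
Bbc3, chr7:16309466-16309525, plus strand: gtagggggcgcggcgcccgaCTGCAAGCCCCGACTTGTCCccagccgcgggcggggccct
Sesn1, chr10:41887246-41887305, plus strand: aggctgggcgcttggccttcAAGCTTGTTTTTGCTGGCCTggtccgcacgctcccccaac
Ckap2, chr8:22185983-22186042, minus strand: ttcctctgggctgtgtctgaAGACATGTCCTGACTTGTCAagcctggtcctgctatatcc
Bbc3 and Sesn1 differ from the consensus at 3 bases and Ckap2 at 2. Bbc3 was among the genes higher in every line, while Sesn1 and Ckap2 were not, so a pair in the window and a higher signal did not always go together. Nor did a decamer: Phlda3 and Ephx1, ranked 2 and 3 by p among the 31, held none. Ppm1d and Ddit4l held a decamer and were not higher at an unadjusted limma p under 0.05. A match of letters is not evidence of binding.

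Of the core regulators, Mdm2 was higher with Ad-Cre, and Mdm4 and Ppm1d had small differences. Mdm2, the ubiquitin ligase that degrades p53, read 10.53, 10.51 and 10.42 with Ad-GFP and 10.76, 11.05 and 10.95 with Ad-Cre. The groups did not overlap, and the difference was 0.43 ± 0.11 (SE, n = 3 lines; limma adjusted p = 0.231), or 1.35-fold. It was smaller in line 2 (0.23) than in lines 7 and 8 (0.53 in each). Mdm4, a relative of Mdm2 that blocks p53 as an activator, read 10.51, 10.59 and 10.59 with Ad-GFP and 10.30, 10.60 and 10.58 with Ad-Cre. Its signals overlapped, with a difference of -0.07 ± 0.10 (adjusted p = 0.789), and the 1 low array was that of line 2 with Ad-Cre. Ppm1d, a phosphatase that turns the damage response off, differed by 0.07 ± 0.08 (adjusted p = 0.741).

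Among 9 genes of cell cycle control, 4 were higher at an unadjusted p under 0.05: Cdkn1a, Plk2, Gadd45a and Ccng1. Cdkn1a encodes p21, the inhibitor of cyclin-dependent kinases through which p53 stops the cycle. It read 12.46, 12.80 and 12.86 with Ad-GFP and 13.49, 13.81 and 13.59 with Ad-Cre. Every Ad-Cre array lay above every Ad-GFP array. The difference was 0.92 ± 0.08 (SE; limma adjusted p = 0.0795), or 1.89-fold, and 1.03, 1.0 and 0.73 in the lines. Plk2, a polo-like kinase, read 10.30, 10.31 and 10.25 with Ad-GFP and 10.63, 11.47 and 11.47 with Ad-Cre. Its Ad-GFP arrays lay close together, and the Ad-Cre array of line 2 was the lowest of the 3. The difference was 0.91 ± 0.20 (adjusted p = 0.204) with all lines and 1.19 ± 0.08 (adjusted p = 0.00144) without line 2.

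Gadd45a, which is induced by growth arrest and DNA damage, read 9.28, 9.30 and 9.26 with Ad-GFP and 10.12, 9.89 and 9.74 with Ad-Cre. Here line 2 was the highest Ad-Cre array, and the difference was 0.64 ± 0.11 (adjusted p = 0.143). Ccng1, cyclin G1, read 13.38, 13.47 and 13.40 with Ad-GFP and 13.70, 13.79 and 13.87 with Ad-Cre. This was a small and even shift, 0.37 ± 0.06 (adjusted p = 0.115), or 1.29-fold.

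The other 5 cell cycle genes did not reach an unadjusted p under 0.05. Btg2, an antiproliferative protein, was higher in every line, but by 0.77 in line 2 and by 0.09 and 0.11 in lines 7 and 8. Its mean difference was 0.32 ± 0.15 (adjusted p = 0.475). Gtse1, Ckap2 and Psrc1 act on microtubules and the mitotic spindle, and Plk3 is a polo-like kinase. Gtse1 read -0.96, 0.49 and 0.16 as differences in lines 2, 7 and 8, Ckap2 read -0.86, 0.03 and 0.21, and Psrc1 read -0.23, 0.49 and 0.10. All 3 were lower in line 2 and none was lower in line 7 or line 8. A list of cell cycle genes repressed downstream of p53 and p21 was also far lower in line 2 (median -2.38). The part of the culture's proliferation in these values was not tested. Plk3 read -0.34, 0.60 and -0.05.

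The largest share of higher genes was among those of cell death and survival, with 8 of 11 at an unadjusted p under 0.05 and a median difference of 0.49. Phlda3, which restrains the survival kinase Akt, read 10.85, 11.18 and 11.15 with Ad-GFP and 11.91, 12.21 and 11.87 with Ad-Cre. All Ad-Cre arrays lay above all Ad-GFP arrays, and the difference was 0.93 ± 0.10 (SE; limma adjusted p = 0.0919), or 1.91-fold. Bbc3, the BH3 protein Puma that starts mitochondrial apoptosis, read 8.45, 8.37 and 8.30 with Ad-GFP and 9.27, 9.03 and 8.85 with Ad-Cre. Its difference was 0.68 ± 0.10 (adjusted p = 0.116), largest in line 2. Pmaip1, the related BH3 protein Noxa, read 7.66 ± 0.19 (SD, n = 3) for Ad-GFP and 7.67 ± 0.20 for Ad-Cre.

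Receptors of the tumour necrosis factor family gave a mixed picture. Eda2r read 10.14, 10.28 and 10.16 with Ad-GFP and 10.49, 11.09 and 10.88 with Ad-Cre, a difference of 0.63 ± 0.12 (adjusted p = 0.166). Fas, which binds Fas ligand, read 7.06, 7.17 and 6.94 with Ad-GFP and 8.69, 7.74 and 7.54 with Ad-Cre. Its groups did not overlap, but the size came from line 2, and the difference was 0.93 ± 0.24 (adjusted p = 0.243) with that line and 0.58 ± 0.11 without it. Tnfrsf10b, the receptor for the ligand TRAIL, went the other way in line 2. It read 8.66, 9.47 and 9.02 with Ad-GFP and 7.61, 10.40 and 9.96 with Ad-Cre. Lines 7 and 8 were each higher by 0.94 and line 2 was lower by -1.06, so that the mean, 0.27 ± 0.43 (adjusted p = 0.822), describes none of the lines. Without line 2 the difference was 0.94 ± 0.09 (adjusted p = 0.00416).

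Aen, a nuclease that digests DNA in dying cells, read 8.68, 8.65 and 8.78 with Ad-GFP and 9.07, 9.38 and 9.31 with Ad-Cre, a difference of 0.55 ± 0.11 (adjusted p = 0.174). Trp53inp1, a stress-induced nuclear protein that promotes p53 activity, read 11.90, 11.96 and 11.95 with Ad-GFP and 12.26, 12.41 and 12.32 with Ad-Cre. The 3 line differences of Trp53inp1 were nearly equal (0.37, 0.45 and 0.37; mean 0.39 ± 0.07; adjusted p = 0.133). Zmat3, an RNA-binding zinc finger protein, was higher by 0.49 ± 0.12 (adjusted p = 0.237), most in line 7 (0.78). Ei24, a protein of the endoplasmic reticulum, had the smallest of these differences, 0.23 ± 0.06 (adjusted p = 0.268). Perp, a membrane protein of cell junctions, was the exception in direction. It read 7.50, 7.83 and 7.51 with Ad-GFP and 7.20, 7.51 and 7.48 with Ad-Cre, and these signals overlapped. The difference was -0.22 ± 0.10 (adjusted p = 0.474). Trp53i11, the current symbol of Tp53i11 and outside the rule and the counts, was higher by 0.41 ± 0.12 (adjusted p = 0.3), with 0.08, 0.63 and 0.52 in the lines.

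**Figure D2:**
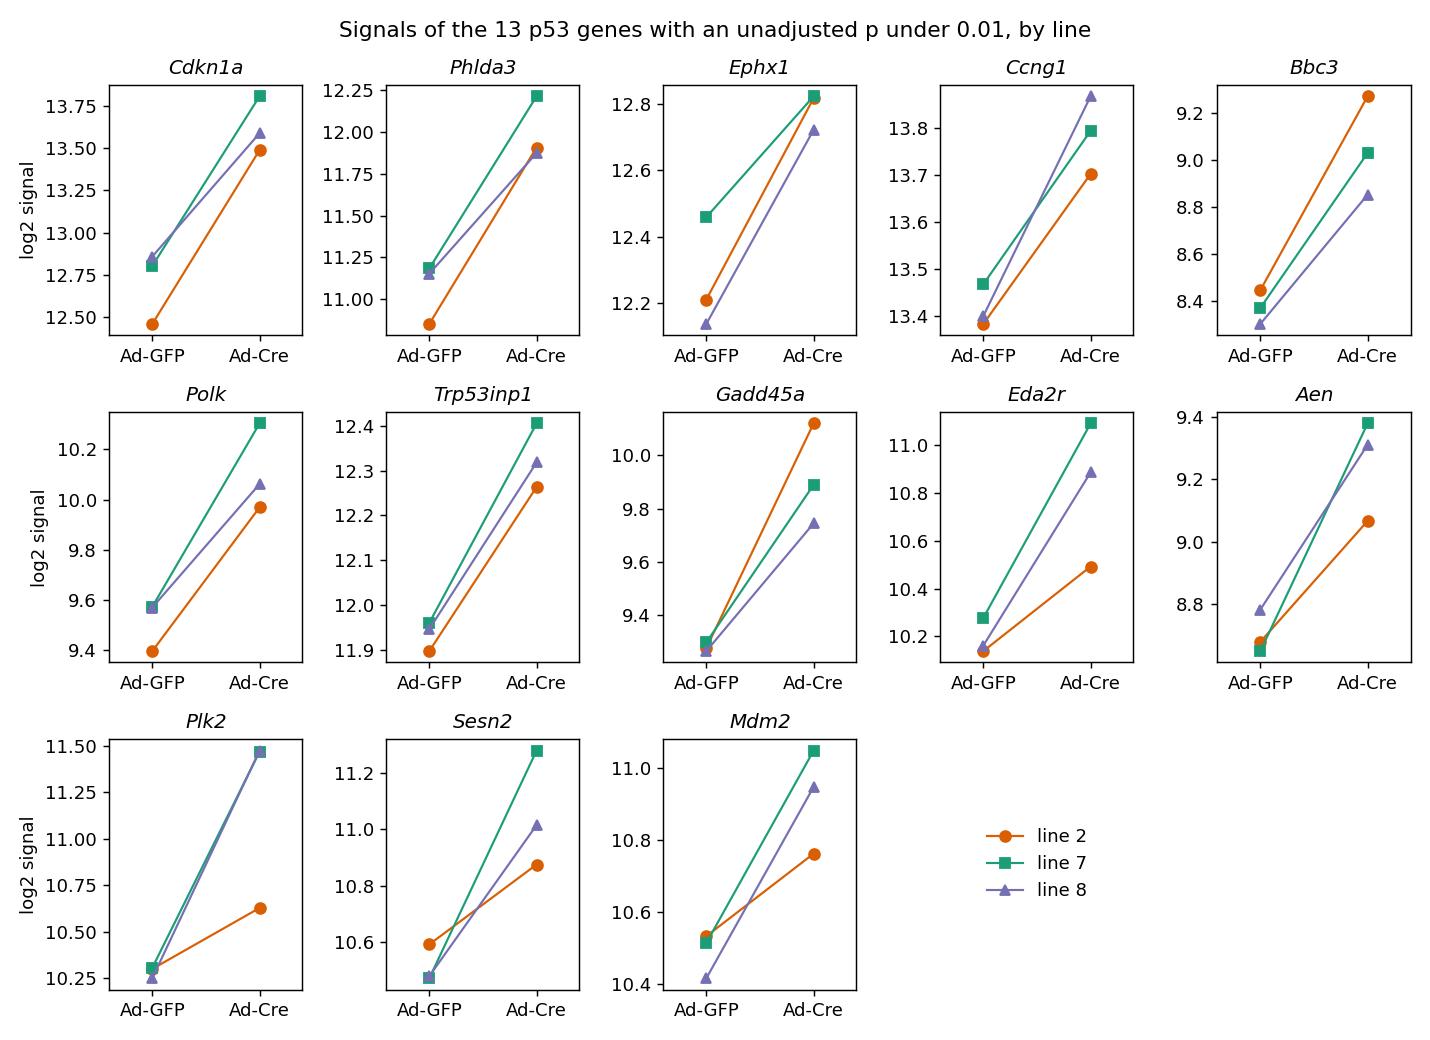
Log2 signals of the 13 p53 genes with an unadjusted p under 0.01, on vertical axes that differ between panels and do not start at 0; each line joins the Ad-GFP and Ad-Cre arrays of 1 cell line (2, 7 or 8). Every line slopes upward, and the Ad-Cre point of line 2 is the highest of the 3 for Bbc3 and Gadd45a and stands well below the others for Plk2 (10.63, against 11.47 and 11.47).

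Of 2 genes for DNA repair and nucleotide supply, Polk was higher and Rrm2b was not steady. Polk, a polymerase that copies past damaged bases, read 9.40, 9.57 and 9.57 with Ad-GFP and 9.97, 10.30 and 10.06 with Ad-Cre. The groups did not overlap, with a difference of 0.60 ± 0.10 (SE; limma adjusted p = 0.130). Rrm2b, the p53-induced subunit of ribonucleotide reductase, differed by 0.89, -0.04 and 0.26 in the lines, with a mean of 0.37 ± 0.20 (adjusted p = 0.507).

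Among 6 genes of stress metabolism and autophagy, Ephx1 and Sesn2 were higher and the other 4 had differences between -0.06 and 0.11. Ephx1, the microsomal epoxide hydrolase, read 12.21, 12.46 and 12.14 with Ad-GFP and 12.82, 12.82 and 12.72 with Ad-Cre. Its Ad-Cre arrays lay close together, and the difference was 0.52 ± 0.08 (adjusted p = 0.113), or 1.43-fold. Sesn2, a sestrin that restrains the growth regulator mTORC1, read 10.59, 10.47 and 10.48 with Ad-GFP and 10.88, 11.28 and 11.02 with Ad-Cre, a difference of 0.55 ± 0.13 (adjusted p = 0.214). Sesn1, the other sestrin of the list, did not share this pattern. Sesn1 read 0.13, -0.41 and 0.10 as differences in the lines (mean -0.06 ± 0.14; adjusted p = 0.881). Ddit4l, another mTORC1 inhibitor, read 0.11 ± 0.16, Dram1, a lysosomal protein of autophagy, 0.04 ± 0.08, and the secreted stress cytokine Gdf15 -0.03 ± 0.12 (adjusted p between 0.796 and 0.943).

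**Figure D3:**
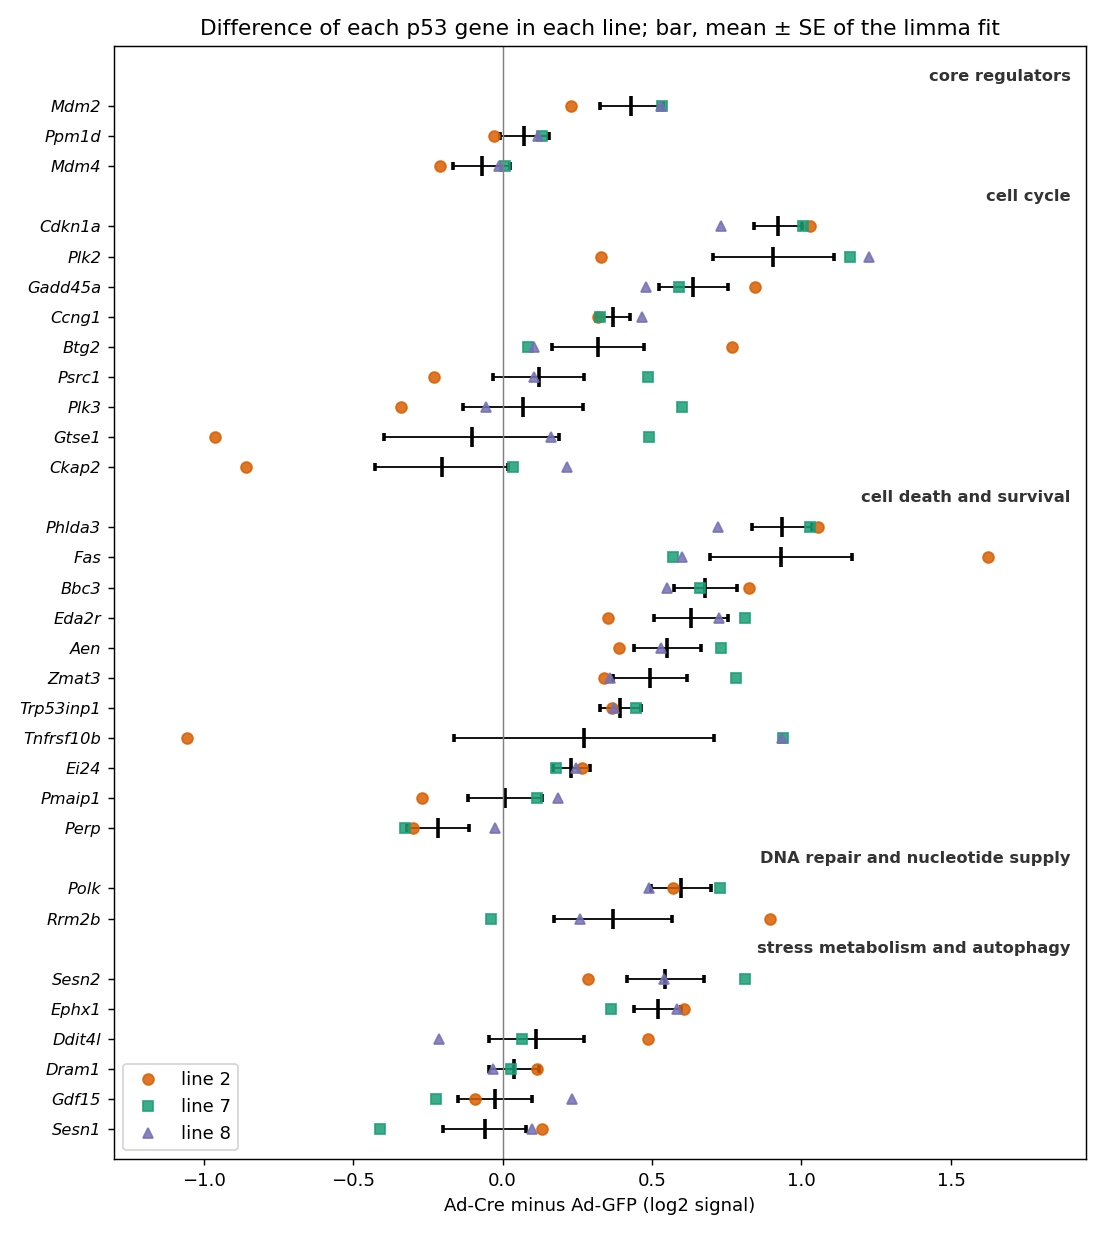
Ad-Cre minus Ad-GFP difference (log2 signal, horizontal axis) of the 31 p53 genes, ordered by role; coloured points are lines 2, 7 and 8, and black bars are the mean ± SE of the limma fit. Points of all 3 lines lie right of 0 for 17 genes, and line 2 lies far left of the other lines for Tnfrsf10b, Gtse1 and Ckap2.

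Probe sets within a gene gave a finer view, since each covers a part of the transcript. Of the 318 probe sets, 133 were higher at an unadjusted limma p under 0.05 (41.8%), against 5.26% of all probe sets, and 2 were lower, against 5.47%. None of the 318 passed the adjusted test, as 0.00% of all probe sets did. In every line 159 of the 318 were higher (50%), against 17.5% of all probe sets, and 14 were lower, against 16.5%. All 6 probe sets of Cdkn1a, all 5 of Phlda3, all 8 of Trp53inp1 and all 10 of Zmat3 were higher in every line. In Cdkn1a the probe sets differed in size: the brightest one differed by 0.71 and a much dimmer one (mean signal 8.59) by 2.23, with 2.24, 2.61 and 1.84 in the lines. In Bbc3 the brightest probe set differed by 0.17 and the others between -0.03 and 1.45, so the size of its difference depends on the probe set. The size for Fas does too: its brightest probe set differed by 0.45 and the others between 0.33 and 1.28. Gadd45a had 3 of 5 probe sets higher in every line, and those with mean signals of 9.88 and 9.47 differed by -0.05 and -0.14 in line 7. Polk had 15 of 19 probe sets higher in every line and 1 lower in every line, and Aen had 8 of 12 and 1. Dram1, with a gene difference of 0.04, held probe sets from -1.03 to 0.43, and the one at -1.03 was dim (mean signal 5.69). The labels and files do not place the probe sets on the transcripts.

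**Figure D4:**
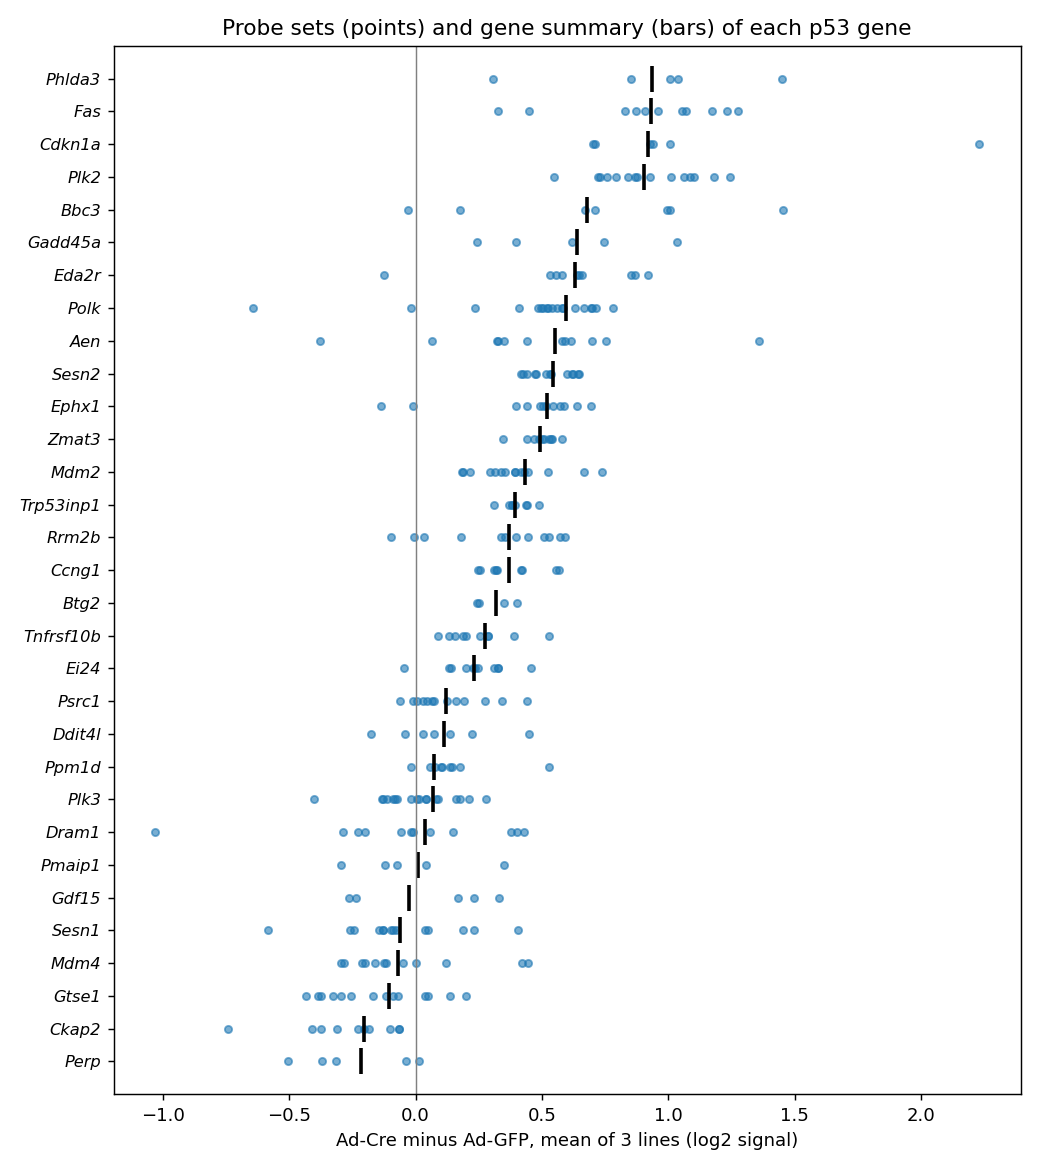
Ad-Cre minus Ad-GFP difference (log2 signal, mean of 3 lines) of each of the 318 probe sets (blue points) of the 31 p53 genes, with the gene summary as a black bar; genes are ordered by that summary. All points of Cdkn1a, Phlda3, Plk2, Fas, Gadd45a, Sesn2, Zmat3, Mdm2, Trp53inp1, Ccng1, Btg2 and Tnfrsf10b lie above 0, and 1 dim Cdkn1a probe set stands apart at 2.23. The points do not show the single lines: 1 of 4 probe sets of Btg2 and 0 of 10 of Tnfrsf10b were higher in every line.

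The p53 genes with the widest differences were not the same in each line. Medians over the 31 genes were 0.32, 0.49 and 0.36 in lines 2, 7 and 8, and 21, 27 and 26 of the genes were higher. Over all 23152 genes, 12797, 12837 and 12028 were higher. Line 2 gave the smallest of the 3 differences for 16 genes, among them Plk2, Mdm2 and Sesn2, and the largest for 12, among them Fas, Rrm2b and Btg2. Over all genes line 2 gave the smallest difference for 8522 and the largest for 9265, so its count of largest differences is close to the share over all genes. With 1 pair of arrays per line, differences between the lines in the virus effect could not be tested. As to levels, 0 of the 31 genes differed between lines at an adjusted p under 0.05 (limma F test; 0.00864% of all genes did). At an unadjusted p under 0.05, 6 did, against 4.92% of all genes: Ddit4l, Gdf15, Sesn1, Tnfrsf10b, Cdkn1a and Plk3. Ddit4l read 9.47 and 9.53 in line 7 and 8.71 and 8.49 in line 8, a wider gap than between its viruses in any line.

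Other genes of the pathway were taken from lists and shifted less. Of 28 measured p53 targets outside the 34, 7 were higher at an unadjusted limma p under 0.05 (25.0%) and 1 was lower, with a median of 0.20, and 0 passed over all genes. The thiamine transporter Slc19a2 read 0.47 ± 0.11 (adjusted p = 0.220) and Trp53cor1, a long noncoding RNA encoded near Cdkn1a, 0.54 ± 0.13 (adjusted p = 0.226). The adenylate kinase Ak1 read 0.37 ± 0.09 (adjusted p = 0.244) and the adhesion protein Ninj1 0.55 ± 0.15 (adjusted p = 0.262). The 1 lower gene, named after its value was seen, was Cyfip2, a regulator of actin, at -0.58 ± 0.16 (adjusted p = 0.279). Of 29 activators, cofactors and relatives of p53, 3 were higher at that p (10.3%) and 1 was lower, with a median of -0.02, and 0 passed over all genes. These counts lie near those over all genes, where 7.04% were higher and 5.58% lower. Ppp1r13b, a p53 cofactor of the ASPP family, read 1.12 ± 0.18 (adjusted p = 0.120) and was higher in all 3 lines. Cdkn2a, the locus of p16 and of the Mdm2 inhibitor ARF, read 8.71, 8.5 and 8.59 with Ad-GFP and 9.26, 9.26 and 9.02 with Ad-Cre. Its groups did not overlap (0.58 ± 0.11; adjusted p = 0.160), and its gene summary does not separate the transcripts. The kinase Hipk2, which phosphorylates p53, read -0.24 ± 0.07 (adjusted p = 0.298), and the ubiquitin ligase Rchy1 0.27 ± 0.09 (adjusted p = 0.338).

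Cell cycle genes known to be repressed downstream of p53 and p21 read lowest, relative to the control, in line 2. Of 31 measured, all 31 were lower in line 2, 25 in line 7 and 29 in line 8, with medians of -2.38, -0.19 and -0.26. Over all 23152 genes, 10352, 10305 and 11120 were lower in these lines. At an unadjusted limma p under 0.05, 5.58% of all genes were lower and 7.04% higher. Of the 31, 1 was lower and 0 were higher at that p, and 0 passed over all genes. That 1 was Ccnb2, a mitotic cyclin, at -1.90 ± 0.58 (adjusted p = 0.303). Mki67 read -2.56, -0.20 and -0.33 in the lines. The mean differences rested largely on line 2: without it Ccnb2 read -1.03, and Nek2 went from -0.93 to -0.37, Cdc25c from -1.18 to -0.44 and Nusap1 from -1.05 to -0.33. Without line 2, 5 of the 31 passed limma as lower, against 2.57% of all genes. They were Ccnb2 (adjusted p = 0.0107), Top2a (0.0333), Cdc25c (0.0345), Nusap1 (0.0412) and Bub1 (0.0493). Top2a and Bub1 are named after their values were seen. Cdkn1a differed by 1.03, 1.0 and 0.73 in lines 2, 7 and 8. A link between Cdkn1a and these cell cycle genes was not tested.

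Markers of several cell types also differed between the viruses, and 0 passed limma over all genes with all lines. Without line 2, the exclusion under which 16 p53 genes passed, 2.57% of all genes passed as lower and 2.66% as higher. Passing as lower were 5 of 8 astrocyte, 4 of 8 neuronal, 3 of 9 oligodendrocyte lineage and 3 of 10 neural stem cell markers. Of 8 fibroblast and pericyte markers, 1 passed as lower (Pdgfrb) and 1 as higher (Foxc1). Also higher were 1 neural stem cell marker (Hes1), 1 microglial marker (Cd68) and 1 endothelial marker (Emcn). With no block for the line, 2 neuronal and 2 oligodendrocyte lineage markers passed as lower, where 0.354% of all genes passed in either direction. In bulk RNA, fewer cells of a type and less RNA per cell cannot be told apart. For the counts below, 16.2% of all genes were lower in all lines and 22.1% were higher in all lines. Mean log2 levels of 8 neuronal markers were 9.34 to 9.47 with Ad-GFP and 8.59 to 8.90 with Ad-Cre, and 4 of the 8 were lower in all lines (among them Dcx -1.80, Snap25 -2.45 and Elavl3 -0.90) and 1 was higher in all lines (Rbfox3 0.39). Those of 9 oligodendrocyte lineage markers were 9.46 to 9.58 and 8.73 to 8.92, with 3 lower in all lines (among them Gpr17 -2.86, Pdgfra -2.72). The mean of the 9 was lowered largely by Gpr17 and Pdgfra, and the median difference was -0.09. Mean levels of 8 astrocyte markers were 10.38 to 10.62 and 9.42 to 10.61, with 4 lower in all lines (among them Aldh1l1 -1.66, Apoe -1.31). Gfap read 11.27 on the line 2 Ad-Cre array and 7.48 to 8.33 on the others. The astrocyte marker S100b, named after its value was seen, was higher by 0.61 on average, with 1.0, -0.01 and 0.84 in the lines. For 10 neural stem cell markers the levels were 11.83 to 11.95 and 11.58 to 11.77, with 4 lower in all lines (among them Prom1 -1.31 and Msi1 -0.48) and 2 higher (Hes1 0.42 and, named after its value was seen, Vim 0.09). Levels of 8 microglial markers were 7.08 to 7.15 and 7.21 to 7.25, of 7 endothelial markers 6.59 to 6.65 and 6.65 to 6.86, and of 8 fibroblast and pericyte markers 7.65 to 7.94 and 7.58 to 7.69. The mean of the fibroblast and pericyte markers was lowered by Acta2 (-2.35) and Pdgfrb (-0.61), while 4 of the 8 were higher in all lines (among them Foxc1 0.83 and Col1a1 0.33) and the median difference was 0.10. For scale, lower quartiles of signal on the arrays ran from 6.57 to 6.60. Over the 31 p53 genes the mean level was 10.11 to 10.21 with Ad-GFP and 10.35 to 10.62 with Ad-Cre. The part of cell composition in the p53 gene differences was not tested.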

How the data were processed

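RNA of 6 mouse neural stem cell cultures was read on 1 Affymetrix array each. The values deposited by the authors are on a log2 scale, 1 per probe set. The submitters' processing notes name Affymetrix Expression Console and RMA, without versions or settings. RMA equalises arrays, so a shift shared by most genes would be hidden. By GEO's platform annotation, which can be old, 233753 probe sets have 1 gene symbol, 5106 several and 30892 none. Median polish (up to 20 iterations) of those with 1 symbol gave 23152 genes.

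Ad-Cre was compared with Ad-GFP in limma 3.58.1 (R 4.3.3) with the line as a block and a variance trend on signal. Tests were two-sided, and adjusted p-values are Benjamini-Hochberg values across the 23152 genes. Lines pair the arrays because each line received both viruses. Deviations from the virus mean correlated at 0.226, 0.163 and 0.333 within lines and at most at 0.00288 between lines. Deviations of the 3 arrays of a virus sum to 0, so positive values within lines force low ones between lines. The model was tested on simulated data. Every measured gene of the list is named. Signals on each array are given for genes with an unadjusted p under 0.01 and 1 direction in all lines, for Mdm2, Mdm4 and Cdkn1a, and for genes lower in all lines; Fas and Tnfrsf10b were added after their values were seen. From other lists up to 4 genes of lowest p are named, and Mki67 always. The members and lists were chosen with earlier results of these data known. Of 149 genes in other lists, 146 were matched, 5 through a RefSeq synonym (GRCm38.p6). Promoters were searched in Python 3.11.15. Protein sequences were not used here.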

Additional observations from a re-analysis of the deposited data

Results flagged for a closer look

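In 3 p53 genes, cell lines moved in opposite directions by at least 0.3 log2 units. Tnfrsf10b, a death receptor, differed between Ad-Cre and Ad-GFP by -1.06 in line 2, 0.94 in line 7 and 0.94 in line 8. Gtse1, a microtubule protein of dividing cells, differed by -0.96 in line 2 and 0.49 in line 7. The kinase Plk3 differed by -0.34 in line 2 and 0.60 in line 7. Each line has 1 array per virus, so the difference between lines was not tested. The Ad-Cre array of line 2 was the one with low Mki67 (10.10), and the part of that array in these values was not tested.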

How the results depend on the processing

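Over 13 alternatives, the 16 genes higher at an unadjusted p under 0.05 had a positive difference in each. All 16 kept that p in 9 alternatives, 15 with the brightest probe set, 12 without line 7, 14 without line 8 and 0 after exchanging the viruses of line 8. With that exchange 2 genes were higher in all lines and the median was 0.10. With the brightest probe set the median was 0.25. After adjustment over all genes, limma with the line as a random block passed 4 p53 genes (Cdkn1a, Ccng1, Phlda3 and Trp53inp1) and 241 genes in all, and the mean of probe sets passed 2 (Cdkn1a and Phlda3) and 73. The fit with no replicate block passed 82 of all genes and 0 p53 genes, and 16 p53 genes were higher at the unadjusted p. Leaving out 1 line in turn gave 0 to 1211 genes called, 0 to 16 p53 genes called, 12 to 19 higher at the unadjusted p, 19 to 23 higher in both lines left, and medians of 0.37 to 0.40. Differences changed sign 22 times, in 11 genes. With the mean of probe sets Pmaip1 read -0.019, Gdf15 0.046 and Dram1 -0.035. With the brightest probe set Sesn1 read 0.051 and Gdf15 0.23, and with cyclic loess Pmaip1 read -0.0054. Leaving out 1 line in turn, Plk3 ran from -0.20 to 0.27, Gtse1 from -0.40 to 0.33, Psrc1 from -0.062 to 0.29, Ckap2 from -0.41 to 0.12, Pmaip1 from -0.078 to 0.15, Tnfrsf10b from -0.060 to 0.94, Sesn1 from -0.16 to 0.12, Ddit4l from -0.075 to 0.28, Gdf15 from -0.16 to 0.071 and Dram1 from -0.00055 to 0.073. With the viruses of line 8 exchanged, Ppm1d read -0.0052, Pmaip1 -0.11 and Tnfrsf10b -0.35. The causes were not tested. With 3 arrays per virus the model has 2 residual degrees of freedom.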

Other observations

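In 2 probe sets a p53 gene shares its symbol with another transcript, and these were left out of the gene summaries. The one of Gadd45a and E230016M11Rik differed by 0.78, 0.49 and 0.45 in lines 2, 7 and 8. The one of Zmat3 and 4930429B21Rik differed by 0.24, 0.34 and 0.22, so both were higher with Ad-Cre in all 3 lines, as the summaries of Gadd45a and Zmat3 were.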
